A study of Mus musculus with 12 samples.

Results

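CTCF peaks at bidirectional promoters were examined in peak lists from brain, heart and lung of C57BL/6 mouse embryos (C57BL/6 N in the study's methods) at E18.5. The embryos were wild type or carried a homozygous Ctcf R567W change, which had been introduced by CRISPR/Cas9 genome editing and replaces an arginine of the last zinc finger of CTCF. Each tissue and genotype was represented by 1 CTCF ChIP-seq library, so there were 6 peak lists, and the 6 matching input libraries were not analysed here. Before the immunoprecipitation, chromatin of the human kidney cell line HEK293T was added to every sample as a spike-in. The labels did not give how many embryos contributed to a library, and tissue identity could not be checked against marker genes because a peak list holds no RNA level. Promoters were taken from the basic GENCODE annotation, in which 755 combinations of protein-coding genes on opposite strands pointed away from each other with starts at most 1000 bp apart, 734 of them pairs in which each gene was the nearest such partner of the other. A peak was a member if its summit lay between the starts or within 200 bp of either. This held for 981 of 183882 peaks summed over the 6 lists, and all of them were used without a filter on strength. They fell into 380 sites once overlapping regions of the 6 lists were merged.

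A bidirectional promoter is a short stretch of DNA from which a pair of neighbouring genes is transcribed outwards, and it is usually a CpG island of open chromatin without a TATA box. Many such pairs are housekeeping genes of DNA repair, RNA processing, mitochondria or chromatin. CTCF binds DNA through its zinc fingers at a long core motif, some sites carry an additional upstream motif bound by the last fingers, and bound CTCF halts cohesin and so anchors chromatin loops.

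The stretches between the starts are shown for 7 pairs that carried a core motif there and that the results turn on. Each sequence is the plus strand of GRCm38 (mm10), from the base after the start of the minus-strand gene, named first, to the base before the start of the plus-strand gene. Capitals mark the match to the core motif. The first 5 pairs held peaks in all 6 lists. They were chr3:54735394-54735538, between an RNA exosome subunit and an enzyme of N-glycan assembly, chr8:104534638-104534688, between a subunit of the NEDD8-activating enzyme and a carbonic anhydrase, and chr1:143777069-143777271, between the Ro RNA-binding protein and a proteasome-associated deubiquitinase. They also included chr10:94035818-94036000, between an adherens junction protein and a FYVE-domain protein. The last of these 5 was chr5:34660149-34660378, between a ribosome biogenesis factor and a G protein-coupled receptor kinase. The core motif lay on the plus strand in the first 4 and on the minus strand in Nop14/Grk4.
Exosc8/Alg5: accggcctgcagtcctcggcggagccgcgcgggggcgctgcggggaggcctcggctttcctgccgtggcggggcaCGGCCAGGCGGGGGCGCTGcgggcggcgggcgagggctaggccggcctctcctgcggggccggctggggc
Nae1/Car7: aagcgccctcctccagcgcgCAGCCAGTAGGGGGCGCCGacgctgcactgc
Trove2/Uchl5: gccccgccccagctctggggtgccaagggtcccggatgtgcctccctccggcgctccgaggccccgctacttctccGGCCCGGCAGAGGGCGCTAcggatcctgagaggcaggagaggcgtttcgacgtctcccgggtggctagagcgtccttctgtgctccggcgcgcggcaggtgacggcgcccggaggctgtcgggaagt
Vezt/Fgd6: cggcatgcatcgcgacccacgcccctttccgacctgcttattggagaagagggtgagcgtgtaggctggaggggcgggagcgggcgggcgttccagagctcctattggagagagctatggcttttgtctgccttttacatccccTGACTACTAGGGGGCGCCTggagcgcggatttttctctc
Nop14/Grk4: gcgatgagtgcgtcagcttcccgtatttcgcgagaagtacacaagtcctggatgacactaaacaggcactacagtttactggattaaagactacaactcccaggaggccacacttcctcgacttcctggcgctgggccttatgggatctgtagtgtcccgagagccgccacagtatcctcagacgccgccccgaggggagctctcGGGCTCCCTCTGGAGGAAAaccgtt

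The last 2 stretches belonged to sites found in a single genotype. Dad1/Abhd4 (chr14:54254105-54254187, core motif on the minus strand) was bound in the wild-type lists alone, in each tissue, and Dad1 encodes a subunit of oligosaccharyltransferase. Wdhd1/Socs4 (chr14:47276858-47276930, core motif on the plus strand) held a peak in mutant brain and mutant lung and in no wild-type list, and the pair encodes a replication factor and a suppressor of cytokine signalling.
Dad1/Abhd4: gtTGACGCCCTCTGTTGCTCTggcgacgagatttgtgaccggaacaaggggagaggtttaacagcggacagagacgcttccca
Wdhd1/Socs4: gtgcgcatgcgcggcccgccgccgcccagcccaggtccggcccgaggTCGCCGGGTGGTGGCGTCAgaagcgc

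The lists held between 11515 peaks in mutant heart and 44386 in wild-type lung. Read depth is not part of a peak list, and the pileup at each summit, the number of fragments covering it, was recovered from the deposited values and had a median of 29.0 to 55.0 per list. Wild-type lung stood apart in its local background, which at peaks more than 1000 bp from a protein-coding start was a median of 2.38 times the genome-wide background against 1.01 to 1.13 times in the other 5 lists, so fold enrichment in that list is low for a given pileup. At bidirectional promoters this ratio was 1.23 to 1.65 over the 6 lists. No group had a second library, so the 95% intervals below cover counting error for shares and the spread between sites for medians, and neither covers variation between libraries.

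Bidirectional promoters held CTCF summits more often than promoters of single genes in each of the 6 lists. In wild-type brain 147 of 734 pairs held a summit (20.0%, Wilson interval 17.3 to 23.1) against 10.2% of 19178 starts with no other protein-coding start within 1000 bp. In wild-type heart the shares were 9.67% and 6.25%, and in wild-type lung 36.6% and 15.2%. In the mutant lists the shares of pairs were 30.8% in brain, 7.90% in heart and 27.8% in lung, beside 14.1%, 4.77% and 12.2% of single starts. The difference ranged from 3.14 points in mutant heart (Newcombe interval 1.37 to 5.33) to 21.5 points in wild-type lung (18 to 25.1), and its interval excluded 0 in every list.

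Pairs also had the wider windows, and the promoter classes were not matched for CpG content or gene activity. Per kilobase of window, pairs held 0.339 summits in wild-type brain against 0.253 at single starts, 0.163 against 0.156 in wild-type heart and 0.626 against 0.378 in wild-type lung. The mutant values were 0.518 against 0.352, 0.133 against 0.119 and 0.470 against 0.305. The heart lists therefore differed least between the promoter classes on this scale. Over the 6 lists together 370 pairs (50.4%) held a summit in at least 1 list, 46 held one in every list and 364 held none. The distance between the starts had a median of 128 bp (quartiles 67 and 238). The share of pairs with a summit in any list was 48.4% for the 306 pairs within 100 bp of each other, 66.2% (54.0 to 76.5) for the 65 pairs 301 to 500 bp apart and 47.1% (35.7 to 58.8) for the 68 pairs 501 to 1000 bp apart.

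**Figure D1:**
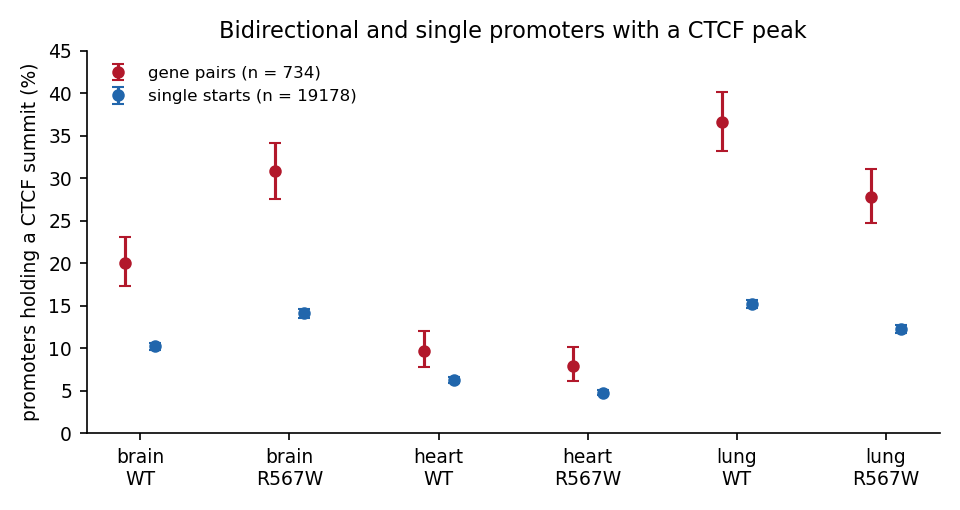
Share of gene pairs with a bidirectional promoter (red) and of single starts (blue) that held a CTCF summit in each list, in percent, with 95% Wilson intervals. The red points lie above the blue ones in all 6 lists, with the widest gap in wild-type lung (36.6% against 15.2%).

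Peaks at bidirectional promoters had the lowest median fold enrichment of the 3 classes of peaks in each list. The median of this measure, the authors' ratio of summit pileup to local background, was 7.62 in wild-type brain, 7.36 in wild-type heart and 5.15 in wild-type lung. At single promoters the medians were 11.8, 9.59 and 6.95, and at peaks more than 1000 bp from any protein-coding start 13.6, 9.87 and 12.1. The medians of mutant members were 6.95 (brain), 9.74 (heart) and 6.71 (lung), against 9.28, 11.3 and 12.4 at single promoters. Away from promoters they were 10.6, 9.91 and 18.9, so mutant heart was the list in which the classes lay closest. Of the wild-type members, 43.9% of those in brain, 43.7% of those in heart and 66.3% of those in lung fell in the weakest quintile of their list by fold enrichment. The same share was 34.1%, 27.6% and 56.1% in the mutant lists. The strongest quintile held 16.9%, 22.5% and 5.86% of wild-type members and 17.7%, 31.0% and 15.6% of mutant members. Fold enrichment also depends on the local background, which in wild-type brain was a median of 1.65 times the genome background at members and 1.13 times away from promoters. Median summit pileup was lowest at members in every list but mutant heart. There it was 33.0 fragments at members, 38.5 at single promoters and 31.0 away from promoters. The spread within the class was wide, with summit pileups from 7 to 1124 fragments.

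**Figure D2:**
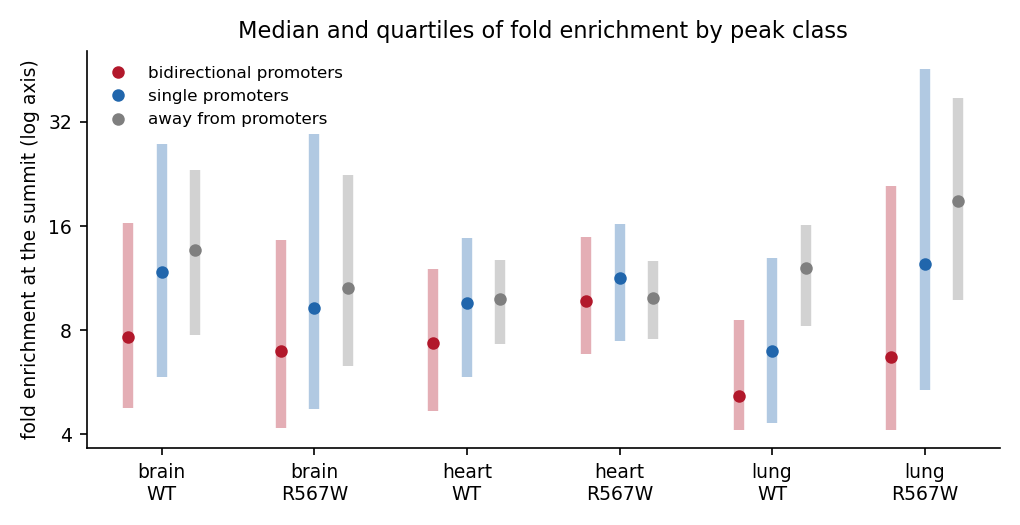
Fold enrichment at the summit on a log axis for peaks at bidirectional promoters, at single promoters and away from promoters in each list. Points are medians and bars span the quartiles, and the red medians are the lowest of each list, with mutant heart showing the smallest gap (9.74 against 9.91 away from promoters).

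The number of members moved in different directions between the genotypes of the tissues. Wild-type brain had 148 members and mutant brain 226, the heart lists had 71 and 58, and the lung lists 273 and 205. The mutant to wild-type ratio was thus 1.53, 0.817 and 0.751. Over all peaks it was 1.07, 0.547 and 0.732, and at single promoters 1.39, 0.763 and 0.806. The log2 ratio of member numbers averaged -0.03 ± 0.56 (SD, n = 3 tissues, exact two-sided sign-flip test, p = 1.0), a test whose smallest possible p is 0.25. In brain and heart the members made up a larger share of the mutant list than of the wild-type list (0.589% against 0.411%, and 0.504% against 0.337%). In lung the shares were 0.631% and 0.615%. The intervals of the genotypes overlapped in heart (0.390 to 0.651 and 0.267 to 0.425) and lung and did not in brain. These intervals cover counting error only, and a difference between the genotypes of a tissue was not tested.

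Wild-type peaks at bidirectional promoters were largely retained in mutant brain. There 137 of 148 wild-type members (92.6%, Wilson interval 87.2 to 95.8) were overlapped by a mutant peak by at least 1 bp, beside 81.5% of all wild-type brain peaks, and 11 members had no mutant peak. For heart it was 51 of 71 (71.8%, 60.5 to 81.0), beside 50.6% of all wild-type heart peaks, and 20 members had no mutant peak. For lung it was 168 of 273 (61.5%, 55.6 to 67.1), beside 67.0% of all wild-type lung peaks, and 105 members had none. The retained share was therefore above that of the complete list in brain and heart, while in lung the members' interval just reached the value of the complete list. With both lists of a tissue cut to equal length by q-value, 90.5% of 148 wild-type members in brain, 96.9% of 32 in heart and 98.8% of 86 in lung were retained, beside 80.5%, 71.3% and 81.1% of all wild-type peaks kept, so the lung members then lay above the complete list.

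The comparison with single promoters had no common direction over the tissues. The retained share at bidirectional promoters minus that at single promoters was -1.02 points for brain (Newcombe interval from -6.50 to 2.42), 3.30 points for heart (from -8.36 to 12.8) and -6.39 points for lung (from -12.5 to -0.557). The mean was -1.37 ± 4.85 (SD, n = 3 tissues, exact sign-flip p = 0.75). Compared within quintiles of wild-type fold enrichment, weighted by where the members lay, the differences were 1.53, 12.1 and 3.62 points, so the brain and lung values changed sign (mean 5.75, exact sign-flip p = 0.25). Peaks away from promoters were retained less often in brain and heart. The members' share exceeded theirs by 12.7 points for brain (7.25 to 15.9) and 23.0 points for heart (11.6 to 32.1), and was lower for lung (difference -5.19, interval -11.1 to 0.407). Within quintiles of fold enrichment the members exceeded them in all 3 tissues, by 23.9, 31.2 and 23.3 points. In the weakest quintile of wild-type brain 56 of 65 members (86.2%) were retained, against 49.4% of peaks away from promoters and 82.6% of peaks at single promoters.

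Read from the mutant lists, more members lacked a partner than in the complete lists. In mutant brain 90 of 226 members (39.8%, 33.7 to 46.3) had no wild-type peak, beside 24.5% of all mutant brain peaks. In mutant heart it was 11 of 58 (19.0%, 10.9 to 30.9) beside 7.12% of all, and in mutant lung 45 of 205 (22.0%, 16.8 to 28.1) beside 9.11% of all. The share of mutant members with a wild-type peak was lower than at single promoters by 5.95 points in brain (difference -5.95, interval -12.7 to 0.473), by 10.3 in heart (difference -10.3, -22.3 to -2.05) and by 5.63 in lung (difference -5.63, -11.9 to -0.275). The mean of these differences was -7.29 ± 2.61 points (SD, n = 3 tissues, exact sign-flip p = 0.25, the smallest possible). Weighted over quintiles of mutant fold enrichment they were 1.06, -8.32 and 1.01 points, so only the heart value kept its sign. Against peaks away from promoters the differences were -18.1, -12.5 and -14.3 points for brain, heart and lung. Weighted in the same way they were -6.28, -11.6 and -1.82 points, so the brain and lung values shrank more than that of heart. With both lists of a tissue cut to equal length by q-value, the share of mutant members without a wild-type peak was 32.1%, 46.6% and 57.6%, beside 20.5%, 28.4% and 19.2% of all mutant peaks kept.

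**Figure D3:**
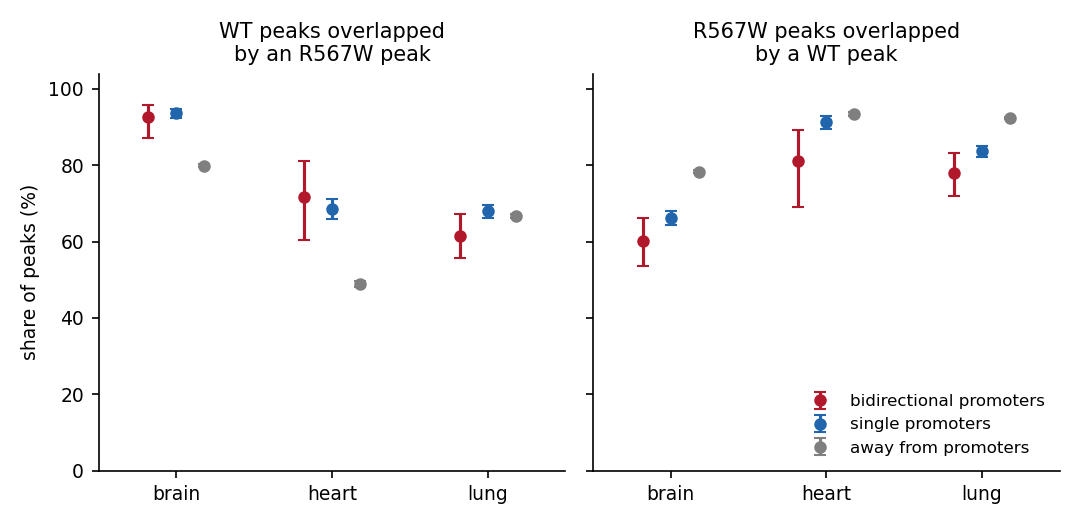
Share of wild-type peaks overlapped by a mutant peak of the same tissue (left) and of mutant peaks overlapped by a wild-type peak (right), in percent with 95% Wilson intervals, for the 3 classes of peaks. Red points lie near the blue ones on the left, far above the grey ones in brain and heart (92.6% against 79.9%, and 71.8% against 48.9%), and below both on the right.

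Where both genotypes had a peak, the members' summit pileup was higher in the mutant relative to other shared peaks of the tissue. Pileups were divided by the genome background of their list, and the log2 mutant to wild-type ratio was centred on the median of all shared peaks, because no spike-in factor enters a peak list. The median at bidirectional promoters was 0.66 over 137 brain peaks (interval 0.54 to 0.76), 0.23 over 51 heart peaks (0.13 to 0.45) and 0.42 over 168 lung peaks (0.25 to 0.48). The mean was 0.44 ± 0.22 (SD, n = 3 tissues, exact sign-flip p = 0.25, the smallest possible). Single promoters gave 0.56, 0.18 and 0.35 and peaks away from promoters -0.09, -0.02 and -0.07. The members exceeded single promoters by 0.11, 0.05 and 0.07 (mean 0.08 ± 0.03, n = 3 tissues, exact sign-flip p = 0.25). Against shared peaks of the same quintile of wild-type pileup the members' medians were 0.60, 0.26 and 0.26, and against peaks of the same mean pileup 0.54, 0.24 and 0.31. Before centring, the medians were 0.64, -0.02 and 0.07, so the ratio without centring was well above 0 only for brain.

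Members more than 2-fold above the centre outnumbered those more than 2-fold below it in each tissue. In brain 27 shared members (19.7%) were over 2-fold higher, beside 4.48% of all shared peaks, and 2 (1.46%) were over 2-fold lower, beside 10.6%. In heart 4 (7.84%) were higher, beside 0.919%, and 1 (1.96%) was lower, beside 3.03%. In lung 15 (8.93%) were higher, beside 2.67%, and 4 (2.38%) were lower, beside 11.4%. Single promoters leaned the same way, with 15.0%, 2.19% and 6.68% of shared peaks higher in brain, heart and lung and 1.81%, 1.46% and 3.04% lower. The mutant summit also lay in the promoter window at 130 of the 137 shared members of brain, 47 of 51 in heart and 151 of 168 in lung, and over these the medians were 0.63, 0.23 and 0.39.

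**Figure D4:**
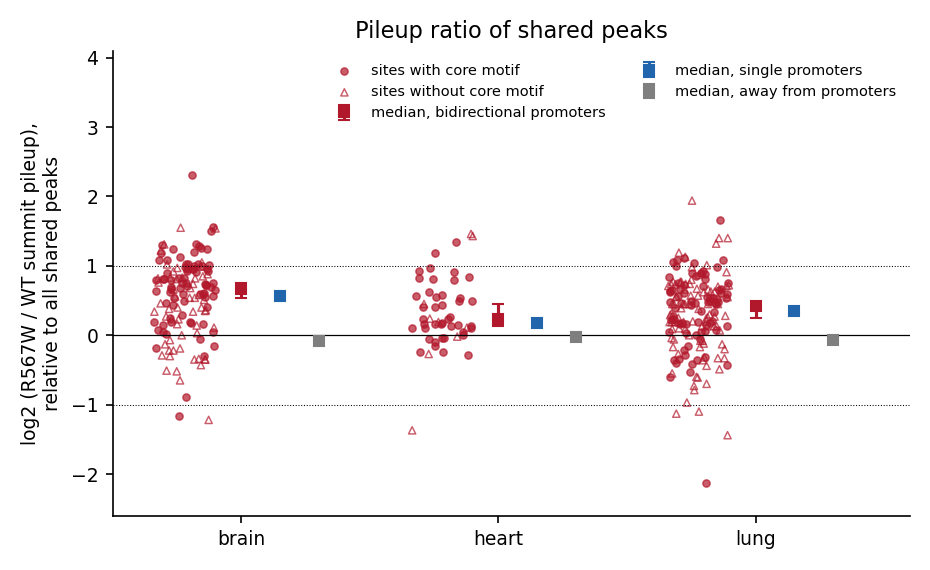
Log2 ratio of mutant to wild-type summit pileup at shared peaks, relative to all shared peaks of the tissue. Small symbols are single sites at bidirectional promoters with (filled) or without (open) the core motif, squares are class medians with 95% intervals, and dotted lines mark 2-fold. The red medians (0.66, 0.23 and 0.42) lie above the line at 0 in each tissue, next to the blue ones of single promoters.

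The core motif of CTCF was less frequent at bidirectional promoters than away from promoters. A matrix of 19 columns was learned from wild-type brain peaks away from promoters, and a match at p of 1e-04 or less on either strand was counted where it lay at most 100 bp from the summit. It was present at 57.4% of wild-type brain members (49.4 to 65.1), 66.2% of heart members (54.6 to 76.1) and 35.5% of lung members (30.1 to 41.4). Windows of the same length 1100 bp to either side of the members held it in 5.07%, 4.23% and 4.76%. Within promoters, it was found at the midpoints of 7.14% of the 364 pairs without a peak in any list. At peaks away from promoters the shares were 90.2%, 92.9% and 88.5%, and at single promoters 62.0%, 69.9% and 48.2%. The members thus lay below single promoters by 4.55 points in brain (difference -4.55, Newcombe interval -12.9 to 3.43), 3.75 in heart (difference -3.75, -15.6 to 6.51) and 12.7 in lung (difference -12.7, -18.4 to -6.55). The interval excluded 0 in lung alone, and the mean was -7.00 ± 4.95 points (n = 3 tissues, exact sign-flip p = 0.25). At a stricter p of 1e-05, 18.2%, 31.0% and 10.3% of wild-type members held a match, beside 31.6%, 42.0% and 22.5% of peaks at single promoters and 73.8%, 78.9% and 71.1% of peaks away from promoters. In the mutant lists 45.1% of brain, 75.9% of heart and 44.4% of lung members carried a match at p of 1e-04 or less. Single promoters in these lists gave 51.8%, 79.8% and 56.2%, and peaks away from promoters 89.1%, 96.8% and 91.3%. Members with the motif were the stronger ones, with a median fold enrichment in wild-type brain of 9.97 against 5.14 without it, 10.3 against 4.18 in heart and 8.57 against 4.44 in lung.

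Presence of the core motif went with presence in both genotypes. In wild-type brain 81 of 85 members with the motif (95.3%, 88.5 to 98.2) were retained in the mutant, against 56 of 63 without it (88.9%, 78.8 to 94.5), a difference of 6.41 points (-2.40 to 16.9). In heart it was 41 of 47 (87.2%) against 10 of 24 (41.7%), a difference of 45.6 points (22.5 to 64.1), and in lung 80 of 97 (82.5%) against 88 of 176 (50.0%), a difference of 32.5 points (21.1 to 42.1). The mean difference was 28.2 ± 20.0 points (n = 3 tissues, exact sign-flip p = 0.25), beside 26.1 at single promoters and 27.4 at peaks away from promoters. Peaks with and without the motif also differed in strength, as given above, and the part of strength in this result was not tested. Of the 90 members found in mutant brain alone, 23.3% (15.8 to 33.1) carried the motif, against 59.6% of the 136 also present in the wild type. Single promoters gave 27.4% and 64.3%, and peaks away from promoters 76.1% and 92.7%. In lung the 105 wild-type members without a mutant peak carried it in 16.2%, and the 45 members of the mutant alone in 17.8%. The corresponding shares were 21.0% and 28.2% at single promoters and 79.7% and 71.0% away from promoters. Among shared brain members the centred pileup ratio was 0.74 with the motif (0.64 to 0.82, 81 peaks) and 0.37 without it (0.19 to 0.66, 56 peaks). In heart it was 0.23 with the motif and 0.22 without it, and in lung 0.47 and 0.28. The intervals overlapped in all 3 tissues.

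The upstream motif was found at a minority of members with the core motif. It was searched as TGCAGTNCC with at most 2 mismatches within 30 bp on the 5′ side of the core motif, on the strand of the core. It was found at 17 of 85 core-bearing members of wild-type brain (20.0%, 12.9 to 29.7), 8 of 47 in heart (17.0%) and 16 of 97 in lung (16.5%). The same search on the 3′ side gave 10.6%, 6.38% and 10.3%, and single promoters held the upstream motif in 21.4%, 21.5% and 20.0% and peaks away from promoters in 29.1%, 27.6% and 29.3%. Retained in the mutant were 16 of these 17 members in brain, 8 of 8 in heart and 15 of 16 in lung. Without the upstream motif it was 65 of 68, 33 of 39 and 65 of 81. The difference was -1.47 points for brain (-22.8 to 7.69), 15.4 points for heart (-18.1 to 29.7) and 13.5 points for lung (-9.72 to 24.7), and each interval included 0. At single promoters it was -1.21, -3.12 and 1.46 points, also with intervals that included 0. At peaks away from promoters the difference was -6.68, -9.88 and -9.58 points, with intervals below 0. Of the pairs printed above, Exosc8/Alg5 met this criterion, with 2 mismatches.

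Summits sat on both flanks of the stretch between the starts as well as within it. In wild-type brain 51 of 148 members (34.5%) had the summit between the starts, in heart 27 of 71 (38.0%) and in lung 99 of 273 (36.3%). The stretch between the starts made up 30.4%, 31.0% and 29.3% of the members' windows on average. The median distance of the summit to the midpoint was 128 bp, 112 bp and 118 bp. Nearer to the minus-strand gene were 73 of 148 summits in wild-type brain, 32 of 71 in wild-type heart and 147 of 273 in wild-type lung. In the mutant it was 112 of 226, 21 of 58 and 99 of 205 in the same order. Mutant brain had the lowest share between the starts, 58 of 226 (25.7%). The core motif was found at 60.8% of wild-type brain members between the starts and 55.7% outside, 77.8% and 59.1% in heart, and 37.4% and 34.5% in lung. Over the 121 merged sites with a core motif, 58 had it on the plus strand.

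**Figure D5:**
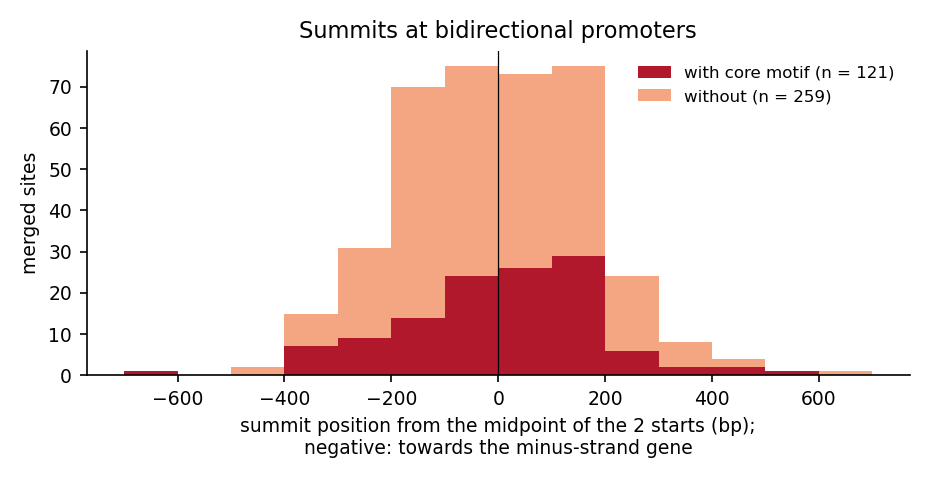
Position, in bp from the midpoint of the paired starts, of the strongest summit inside the promoter window at each of the 380 merged sites. The number of sites per 100 bp is stacked by presence of the core motif. Summits with the motif (121) and without it (259) spread to both sides of the midpoint, mostly within 200 bp.

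Sequence around the summits was that of CpG islands in both promoter classes. In windows of 201 bp the median GC content was 66.7% at members and 67.2% at single promoters, and the median CpG observed over expected was 0.880 and 0.832. At the midpoints of pairs with a peak GC content was 64.2%, against 60.2% at pairs without one. Short promoter motifs were searched on both strands as fixed letters, and SP factors (GGGCGG) matched in 58.9% of members, CCAAT in 25.5%, ETS factors (CCGGAAG) in 17.4%, NRF1 (GCGCATGC) in 3.68%, YY1 (AAGATGGCG) in 2.89%, ZNF143 (ACTACAA) in 2.89% and the TATA box (TATAAA) in 2.37%. At single promoters the shares were 59.9%, 21.9%, 12.1%, 3.05%, 2.22%, 2.05% and 2.38%. The ETS letters differed by 5.28 points (1.66 to 9.52), without adjustment for the 7 motifs, and the intervals of the other 6 motifs included 0. Between members without and with the core motif the shares differed with an interval that excluded 0 for YY1 alone (1.54% against 5.79%), with no adjustment for the 7 motifs. At the midpoints of the pairs, GGGCGG was more frequent where a peak was present, 61.4% against 52.5% (difference 8.88 points, 1.71 to 15.9, again unadjusted). The ETS letters were found there in 22.2% of pairs with a peak and 21.7% without one (difference 0.459 points, -5.53 to 6.44).

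Presence over the lists varied from site to site. Of the 380 merged sites, 56 (14.7%) had a peak in all 6 lists and 115 (30.3%) in 1 list, beside 18.6% and 28.8% of the 56248 merged sites of the complete lists. Of those at single promoters 22.2% and 27.2% did so. Wild-type lung alone, the longest list, accounted for 58 sites (15.3%) and mutant brain alone for 33 (8.68%), beside 12.6% and 9.20% of all merged sites. A further 49 sites (12.9%) were present in brain and lung of both genotypes and absent from both heart lists, the shortest, beside 9.34% of all. In total 244 sites occurred in both genotypes, 67 in wild-type lists only and 69 in mutant lists only. The mutant-only share of 18.2% compares with 16.2% at single promoters and 13.1% over all merged sites, and the wild-type-only share of 17.6% with 15.2% and 22.3%. The core motif was present at 42 of the 56 sites in all 6 lists and at 13 of the 115 sites in 1 list. Of 78 sites present in each of the wild-type lists, 22 had no peak in mutant heart (28.2%), 3 none in mutant lung (3.85%) and 1 none in mutant brain (1.28%). Over all 19565 merged sites of that kind the shares were 46.3%, 6.63% and 6.43%, and at single promoters 28.2%, 2.14% and 1.15%. At 68 merged sites the summit of at least 1 list lay outside the promoter window, and 46 of the 56 sites in all lists had every summit inside it.

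The strongest sites were shared by all tissues. Exosc8/Alg5 had a fold enrichment of 121 in wild-type brain and 113 in mutant brain, while the heart lists gave 50.7 and 42.8 and the lung lists 15.7 and 156. The low value in wild-type lung came with a pileup of 831 fragments, the highest of its 6 lists, over a local background of 52.0 fragments against 3.55 in mutant lung. Its centred log2 pileup ratio was 0.41, 0.01 and 0.22 in the same order of tissues. Nae1/Car7 had pileups of 199 wild-type and 429 mutant fragments for brain, 66 and 67 for heart, and 350 and 379 for lung. Its ratios were 0.89, 0.13 and 0.56, so the mutant was relatively higher in each tissue. Trove2/Uchl5 led the members of wild-type lung by fold enrichment (25.9, rank 903 in the complete list). Its pileup there was 274 fragments over a local background of 9.62, and its ratios were 0.56, 0.80 and 0.48.

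Hjurp/Trpm8, which pairs the CENP-A chaperone with the cold-sensing channel, had the highest pileup of any member, 1124 fragments in wild-type lung and 662 in mutant lung. Its local background was also raised, at 13.3 wild-type and 15.4 mutant fragments for brain, 11.9 and 13.2 for heart, and 61.8 and 14.3 for lung. The genome background of the lists was 1.42 to 2.02 fragments. The ratios of Hjurp/Trpm8 were 0.05, -0.28 and -0.31, against the direction of most members in heart and lung. Tas1r1/Nol9, an umami taste receptor subunit beside a ribosomal RNA processing kinase, gave 0.60, 0.13 and 0.52. Ddias/Prcp gave 0.93, 0.23 and 0.34, Vta1/Nmbr 0.44, 0.43 and 0.55, and Ecd/Fam149b 1.09, 0.49 and 0.61. Among the sites best ranked over all 6 lists, Vezt/Fgd6 gave 0.83, 0.16 and 0.64 and Nop14/Grk4 0.74, 0.26 and 0.53. These 6 pairs therefore lay above the centre in each tissue. Vezt/Fgd6 and Nop14/Grk4 were chosen by ranks that included the mutant lists, so their ratios are not independent of the choice. Of all shared members, 114 of 137 in brain, 40 of 51 in heart and 133 of 168 in lung lay above the centre. At Wrap53/Trp53, the promoter shared by a telomerase component and the p53 gene, a merged region was present in all 6 lists, but only the wild-type lung summit lay inside the window, and no core motif was found beside that summit. Its ratios of 0.63, 0.33 and 0.67 thus describe a region that reaches beyond the promoter.

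A single site of the 380 (0.263%) was present in each wild-type list and absent from each mutant list, beside 1.10% of all merged sites and 0.0945% of those at single promoters. Dad1/Abhd4 was weak, with fold enrichments of 4.78, 4.85 and 5.70 and pileups of 23, 14 and 18 fragments for brain, heart and lung. Its ranks by fold enrichment were 33423 of 36034, 19368 of 21059 and 37724 of 44386 peaks. No site had a mutant peak in all 3 tissues without a wild-type one, beside 0.0213% of all merged sites. Mutant peaks in brain and lung alone were found at 14 sites (3.68%), beside 1.10% of all merged sites and 2.93% of those at single promoters. The 5 best ranked of these were Coa5/Unc50, Fpgt/Lrriq3, Skiv2l/Nelfe, Setd3/Ccnk and Wdhd1/Socs4. Coa5/Unc50, with a cytochrome oxidase assembly factor, was the strongest at 9.90 in mutant brain and 8.39 in mutant lung. Skiv2l/Nelfe, an RNA helicase and a subunit of the negative elongation factor, had 6.06 and 7.43. Fpgt/Lrriq3 had 8.58 and 5.03 and Wdhd1/Socs4 6.29 and 5.0. Setd3/Ccnk had 7.70 and 4.13, and its mutant brain summit lay outside the window. Setd3/Ccnk and Wdhd1/Socs4 carried a core motif, and the other 3 did not. All pileups in this group were between 11 and 35 fragments, beside a median of 34.0 over mutant brain and 47.0 over mutant lung.

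The most extreme pileup ratios, among sites whose wild-type summit in that tissue lay inside the window, came from weak and from stronger sites. In brain Myl12b/Myom1, beside genes for a myosin light chain and a sarcomere protein, had 19 wild-type and 110 mutant fragments (ratio 2.31), and 31 and 43 in lung (0.92). Zfp597/Gm20695 had 23 and 79 fragments in brain (1.56) and 50 and 76 in lung (1.05). The lowest brain ratios were -1.22 at Idh1/Pikfyve, isocitrate dehydrogenase beside a lipid kinase, with 32 and 16 fragments, and -1.16 at Polr3g/Mblac2, with 23 and 12. Idh1/Pikfyve was also low in lung, with 26 and 7 fragments (-1.44). Gfer/Noxo1 had the lowest lung ratio, -2.13, with 84 and 14 fragments, beside -0.89 in brain with 54 and 34. In heart B3galt6/Sdf4 had the lowest ratio, -1.37, with 50 and 18 fragments, beside -0.07 in brain and -0.17 in lung. Its mutant lung summit lay outside the window, so its lung ratio sets summits at different positions against each other. Hjurp/Trpm8 (-0.28, given above) had the next lowest heart ratio among sites whose wild-type heart summit lay inside the window. Txndc9/Eif5b had 9 and 23 fragments in heart (1.46), while its lung ratio was -0.06. The −log10 q of its wild-type heart peak was 1.33, near the smallest of that list (1.31). Fbxl13/Armc10 reached 1.66 in lung with 13 and 30 fragments. Tbc1d10b/Mylpf (1.43 in heart) and Pign/Relch (1.94 in lung) were the other high values, and there only the wild-type summit of that tissue lay inside the window, so the ratio sets summits at different positions against each other.

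Among gene groups typical of bidirectional promoters, the share of pairs with a CTCF peak ranged from 42.9% to 63.6%. The groups were matched by gene symbol, and the share of pairs with a summit in any list was 50.4% over all 734. It was 60.5% (44.7 to 74.4) for the 38 pairs with a gene of DNA repair or replication, 50.0% of 46 pairs with mitochondrial ribosome or respiratory chain genes and 54.5% of 22 pairs with cytosolic ribosome and translation genes. It was 47.8% of 23 pairs for cell cycle and chromosome segregation, 47.6% of 42 for transcription and splicing, 48.6% of 35 for proteasome and ubiquitin, and 63.6% (43.0 to 80.3) of 22 for zinc-finger genes. The core histones had 6 of 14 pairs (42.9%), with 5 in wild-type lung, 2 in mutant lung, 1 in wild-type brain and none in the other 3 lists. The intervals of all 8 groups included 50.4%, but they were wide, so they do not show that the shares are alike.

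Of 16 well-known divergent pairs looked up by name, 6 met the distance rule by gene starts. Atm/Npat, the DNA damage kinase beside a coactivator of histone genes, had pileups of 27 and 34 fragments in wild-type and mutant brain and 34 and 37 in lung, with no peak in heart. Its centred ratios were 0.11 and 0.57, and no core motif was found at its summit. Gart/Son, a purine synthesis enzyme beside a splicing cofactor, had weak peaks in lung of both genotypes, with 9 and 7 fragments. Pdcd10/Serpini1 had a peak in mutant brain with 24 fragments and in wild-type lung with 16. Brca1/Nbr1, Prkdc/Mcm4 and Mrps12/Sars2 held no summit in any of the 6 lists, which at this depth does not show that CTCF is absent there.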

How the data were processed

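CTCF ChIP-seq peak lists of brain, heart and lung from wild-type and homozygous R567W embryos were analysed. Per the labels and the study's methods, the authors used Trim Galore on the reads, mapped them by Bowtie2 to a combined mm10 and hg38 genome, separated the species and called peaks per library with MACS2. Which input served as control was not stated. Each deposited line gave a fold enrichment, the ratio of summit pileup to local background with a pseudocount of 1, and a p-value and q-value as −log10. The deposited score, derived from the q-value, was not used. From the fold enrichment and p-value the summit pileup was recovered within a relative tolerance of 1e-05 for 100% of lines. Lines sharing a region were counted once.

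The genome was GRCm38 with GENCODE M21 basic genes, read with samtools 1.23.1. Pairs, overlaps and motifs were computed in Python 3.11.15 with numpy 2.4.6, pandas 2.3.3 and scipy 1.17.1, and the procedures were tested on simulated data. Shares have Wilson, differences Newcombe and medians binomial order-statistic 95% intervals, and means over 3 tissues an exact two-sided sign-flip test. With 1 library per group, no test was made between genotypes within a tissue. Sites were named by rule: per wild-type list the 3 of highest fold enrichment, up to 5 found in all 3 wild-type lists and no mutant list, up to 5 found in at least 2 mutant lists and no wild-type list, the 5 best ranked in all 6 lists, per tissue the 2 lowest and 2 highest pileup ratios where the wild-type summit lay inside the window, and 16 well-known pairs. Sequences were printed for named sites with a core motif between starts at most 300 bp apart. Members and lists were chosen with earlier results of these data known. Alternatives changed the peak threshold, the pair distance, the window, summit lines, the overlap, the list length, the motif threshold and the comparison by peak strength.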

Additional observations from a re-analysis of the deposited data

Results flagged for a closer look

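The number of peaks at bidirectional promoters changed in opposite directions between tissues, with a log2 mutant to wild-type ratio of 0.61 for brain, -0.29 for heart and -0.41 for lung. Whether the tissues differ was not tested, since each value rests on 2 libraries.

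The retained share of wild-type peaks at bidirectional promoters minus that at single promoters also differed in sign, being -1.02 points for brain, 3.30 for heart and -6.39 for lung. No test compared the tissues here, so the difference between them was not tested, and the intervals of brain and heart included 0.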

How the results depend on the processing

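Of 181 values recomputed under an alternative, 142 stayed within their 95% interval (numbers of peaks within 1.5 times, means without a change of sign) and 39 did not. In all 14 changed sign, each a difference in retained share, and these are among the values below. No mean over 3 tissues could pass a test at 0.05, since the smallest p is 0.25. The settings that compare peaks of like pileup or need both summits inside the window, and all settings for the difference from peaks away from promoters and for the mutant-only share, were chosen after seeing the data. With the summit between the starts only, brain had 51 wild-type and 58 mutant members, heart 27 and 25, and lung 99 and 73. In brain the retained share was then 96.1%, its difference 2.49 points from single promoters and 16.2 from peaks away from promoters, and the mutant-only share 27.6%, while the core motif share in heart was 77.8%. With −log10 q of at least 5, lung had 165 and 136 members, a retained share of 73.3%, a difference of 4.84 points from peaks away from promoters and a mutant-only share of 16.2%, and the core motif shares were 65.6%, 81.5% and 50.9%. With lists of equal length, the retained share was 96.9% in heart and 98.8% in lung, and the mutant-only shares 32.1%, 46.6% and 57.6%. The lung difference was then 3.34 points from single promoters (mean 1.93) and 19.3 from peaks away from promoters. Weighting by fold enrichment gave 1.53 in brain and 3.62 in lung (mean 5.75) against single promoters, and 23.9 in brain and 23.3 in lung against peaks away from promoters. Weighting by pileup gave 0.746 and 3.46 (mean 5.07), 19.5 and 22.8. With at most 1 mismatch in the upstream motif its brain difference was 4.76 points. The brain pileup ratio was 0.54 against peaks of the same mean pileup. At a core motif p of 1e-05, 18.2%, 31.0% and 10.3% of wild-type members carried it. The cause of these shifts was not tested. No paired analysis was possible between replicates because no group had more than 1 library, while the means over 3 tissues average differences taken within each tissue.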
